A study of Mus musculus with 12 samples.

Results

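Atf3, Jun, Sox11 and Klf6 encode transcription factors, and 1 transcript of each was followed in dorsal root ganglia with and without sciatic nerve injury. The transcripts were chosen by their Ensembl IDs, which are ENSMUST00000027941.14 for Atf3, ENSMUST00000107094.2 for Jun, ENSMUST00000079063.7 for Sox11 and ENSMUST00000000080.8 for Klf6. These are 4 of the 101744 transcripts in the deposited table, and all 4 had counts. The table lists IDs only, so the gene symbols come with the choice of transcripts. Other transcripts of the same genes could not be told from the IDs, and every value below belongs to the 1 listed transcript.

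All mice carried the genotype RPL22HA+/+;Advillin-Cre+. Advillin-Cre is active in peripheral sensory neurons, where it turns on an HA-tagged RPL22, a protein of the large ribosomal subunit. RNA pulled down with an anti-HA antibody (IP) is RNA attached to tagged ribosomes, while the input stands for RNA of the ganglion, including glia, immune and vascular cells. The extraction text given for the input also describes the pulldown, so the exact preparation of the input is uncertain. The groups were IP from injured, IP from uninjured, input from injured and input from uninjured mice, with 3 labelled samples in each of the 4 groups. The labels do not state age, time after injury or pooling of animals, and name no pulldown from mice without Cre. The sensory neuron identity of the pulldown could not be checked by marker genes, since the IDs were not paired with names.

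ATF3 and JUN are basic leucine zipper proteins. JUN is a core subunit of the AP-1 complex, and ATF3 can pair with it. SOX11 belongs to the SoxC group of HMG-box factors, which act in immature neurons, and KLF6 is a zinc finger protein of the Krüppel-like family. Injury to the peripheral branch of a sensory neuron is known to switch on a transcription program for axon regrowth, and these factors are among those described in it, with ATF3 in common use as a marker of injured neurons.

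The RefSeq promoter window of each gene runs from 250 bases before to 50 bases after its annotated start, on build GRCm38.p6, and was matched by symbol for 4 of 4 genes. They are shown because the injured groups held more summed counts of all 4 transcripts and because ATF and AP-1 proteins bind related short sites. Whether such sites have any part in the injury differences was not tested. Injured and uninjured portions overlapped, however, for Klf6 in IP, with 106 against 84 summed counts, and for Atf3 and Jun in input. Capitals mark a match to TGACGTCA, TGACATCA or TTACGTCA on either strand. These letters are written 5′ to 3′ on the strand of the gene. The deposited values carry GRCm39 names, and the transcripts measured need not start at these positions.
Atf3, chr1:191183284-191183583, minus strand: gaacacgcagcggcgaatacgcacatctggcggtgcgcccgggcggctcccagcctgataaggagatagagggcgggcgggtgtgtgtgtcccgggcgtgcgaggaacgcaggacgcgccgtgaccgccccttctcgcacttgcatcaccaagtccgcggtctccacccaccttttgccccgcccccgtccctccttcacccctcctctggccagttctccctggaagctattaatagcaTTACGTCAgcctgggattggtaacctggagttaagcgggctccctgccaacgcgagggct
Jun, chr4:95052173-95052472, minus strand: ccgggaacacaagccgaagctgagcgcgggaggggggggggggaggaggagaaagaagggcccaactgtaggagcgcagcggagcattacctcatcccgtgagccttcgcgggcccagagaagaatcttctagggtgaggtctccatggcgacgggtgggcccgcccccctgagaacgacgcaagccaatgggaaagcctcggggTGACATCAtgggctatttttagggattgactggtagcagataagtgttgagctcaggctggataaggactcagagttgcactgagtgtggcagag
Sox11, chr12:27342669-27342968, minus strand: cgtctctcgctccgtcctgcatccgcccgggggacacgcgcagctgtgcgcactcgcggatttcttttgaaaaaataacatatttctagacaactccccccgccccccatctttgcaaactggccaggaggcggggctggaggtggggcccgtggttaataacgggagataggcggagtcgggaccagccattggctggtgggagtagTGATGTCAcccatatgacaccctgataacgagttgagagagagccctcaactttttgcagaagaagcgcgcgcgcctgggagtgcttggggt
Klf6, chr13:5861239-5861538, plus strand: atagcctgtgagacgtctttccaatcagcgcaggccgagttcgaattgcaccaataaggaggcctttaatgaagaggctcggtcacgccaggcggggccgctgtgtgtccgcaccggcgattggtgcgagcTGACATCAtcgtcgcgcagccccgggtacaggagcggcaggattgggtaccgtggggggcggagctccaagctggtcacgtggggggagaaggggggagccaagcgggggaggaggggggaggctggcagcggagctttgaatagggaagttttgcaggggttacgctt

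TGACATCA occurred in the windows of Jun, Sox11 and Klf6, in Sox11 as its reverse complement TGATGTCA. Its first base on the gene strand lay 45 bases before the start in Jun, 42 in Sox11 and 119 in Klf6. The Atf3 window held TTACGTCA instead, 10 bases before the start. Of 32851 promoter windows of this length, 3.62% held TGACATCA and 0.499% held TTACGTCA. The palindrome TGACGTCA was in none of the 4 windows and in 1.79% of all windows. Any of these 3 octamers was in 4 of 4 windows and in 5.84% of all. The 7-base AP-1 motif TGANTCA and the TATA motif TATAAA were in none of the 4, against 7.81% and 13.6% of all windows, while CCAAT was in all 4 and in 37.4% of all. TGACATCA and TTACGTCA were picked with these 4 sequences in view, so the shares describe the windows and test nothing.

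Within a group the totals of the 3 samples differed by 0.0374% to 0.449% of their mean. Input samples held 1584104 to 1685756 estimated counts and IP samples 190594 to 212449. Among transcripts with a mean of at least 300 counts, the median spread of the 3 was 0.928 to 1.41 times counting noise, over 755 and 727 transcripts in uninjured and injured input but only 41 and 40 in IP. Over 9959 transcripts edgeR estimated a common biological coefficient of variation of 35.6%, which is more than counting noise, so whether the 3 are separate samples is not settled. With their nearly equal totals, the 3 samples were summed and handled as portions of 1 sample, so that each group counts once, a difference between groups lacks a replicate check and summed values carry no p-value. A level is given as CPM, the count scaled to a common library size, after TMM scaling, which corrects library totals for differences in composition, with an exact Poisson 95% interval. A transcript was called higher or lower where the ratio of summed levels was at least 2-fold, its exact 95% counting interval excluded 1 and the portions of the groups did not overlap. It was compared only where its higher group reached 10 CPM. For the ratio itself a summed count of 0 was set to 3, but not for its interval or the CPM levels. Ranks of ratios and shares of transcripts with a higher ratio depend on this rule. Intervals cover counting error alone, and PCR copies without molecular tags are not independent molecules. In bulk RNA, fewer cells of a type and less RNA per cell cannot be told apart.

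Atf3 had few counts in the uninjured groups and more in all but 1 of the injured portions. The 3 uninjured IP portions held 1, 1 and 0 counts and the 3 injured IP portions 15, 29 and 29. Every injured IP portion lay above every uninjured one, and the injured portion with 15 counts was the low one of its group. In the input, the uninjured portions held 1, 2 and 5 counts and the injured portions 0, 39.8 and 35.9. The injured input portion at 0 lay below all 3 uninjured ones, so these groups overlap.

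The summed Atf3 level was 1.92 CPM (95% interval 0.232 to 6.93) in uninjured IP and 71.8 (56.3 to 90.3) in injured IP. In input it was 2.63 CPM (1.14 to 5.19) without injury and 28.0 (22.0 to 34.99) with it. In CPM the lowest injured IP portion, 44.3, lay just above the highest injured input portion, 43.9. The order was injured IP, injured input, uninjured input and uninjured IP, and the last 2 of these did not differ beyond counting error. Injured input stood above uninjured input in its sum, but not in all portions.

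Jun was present in all uninjured portions and its counts were uneven after injury. Uninjured IP portions held 6.5, 8 and 6.5 counts and injured IP portions 40, 20 and 12.5. The groups did not overlap, yet the injured IP portions were spread widely among themselves. Uninjured input portions held 28.1, 19.5 and 26.98 counts, and injured input portions 66.0, 76.3 and 0. As with Atf3, a single injured input portion was at 0 while the other two lay above every uninjured one, although it was another portion, number 3 for Jun and number 1 for Atf3.

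Summed Jun levels were 20.1 CPM (12.5 to 30.8) in uninjured IP and 70.8 (55.4 to 89.2) in injured IP. They were 24.7 (19.4 to 31.0) in uninjured input and 52.2 (44.0 to 61.6) in injured input. Ordered by sum, injured IP came first, then injured input, uninjured input and uninjured IP. The portions of each group in that order overlapped those of the next, and the interval of the ratio reached 1 for uninjured input over uninjured IP, at 1.23 (0.748 to 2.10).

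Sox11 had the most even injured IP portions of the 4 transcripts. The uninjured IP portions held 6, 4 and 4 counts and the injured IP portions 57, 65 and 64, with no overlap. In input the uninjured portions held 2, 1 and 5 counts and the injured ones 32, 21 and 38.05, again with no overlap. The levels were 13.4 CPM (7.34 to 22.5) and 183.0 (157.7 to 211.3) in uninjured and injured IP, and 2.63 (1.14 to 5.19) and 33.5 (26.9 to 41.1) in uninjured and injured input. Each group in the order injured IP, injured input, uninjured IP and uninjured input was apart from the next in its portions and its counting interval.

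Klf6 differed more between IP and input than between injured and uninjured ganglia. Its uninjured IP portions held 29, 32 and 23 counts and its injured IP portions 43, 39 and 24. The injured IP portion with 24 counts fell within the uninjured range, so these groups overlap. Its uninjured input portions held 14.0, 14.5 and 10.7 counts and its injured input portions 20.04, 28.03 and 26.1, with no overlap. The levels were 80.6 CPM (64.3 to 99.8) and 104.3 (85.4 to 126.2) in uninjured and injured IP, against 12.8 (9.13 to 17.6) and 27.2 (21.4 to 34.2) in the input. Both IP groups lay above both input groups. With TMM scaling and all portions the 2 IP groups did not differ beyond counting error, but the interval of their ratio excluded 1 with library totals alone, at 1.40 (1.04 to 1.89). It also did without injured IP portion 3, at 1.47 (1.07 to 2.01), and without uninjured IP portion 1 or 2, at 1.48 (1.06 to 2.09) and 1.56 (1.11 to 2.22).

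**Figure D1:**
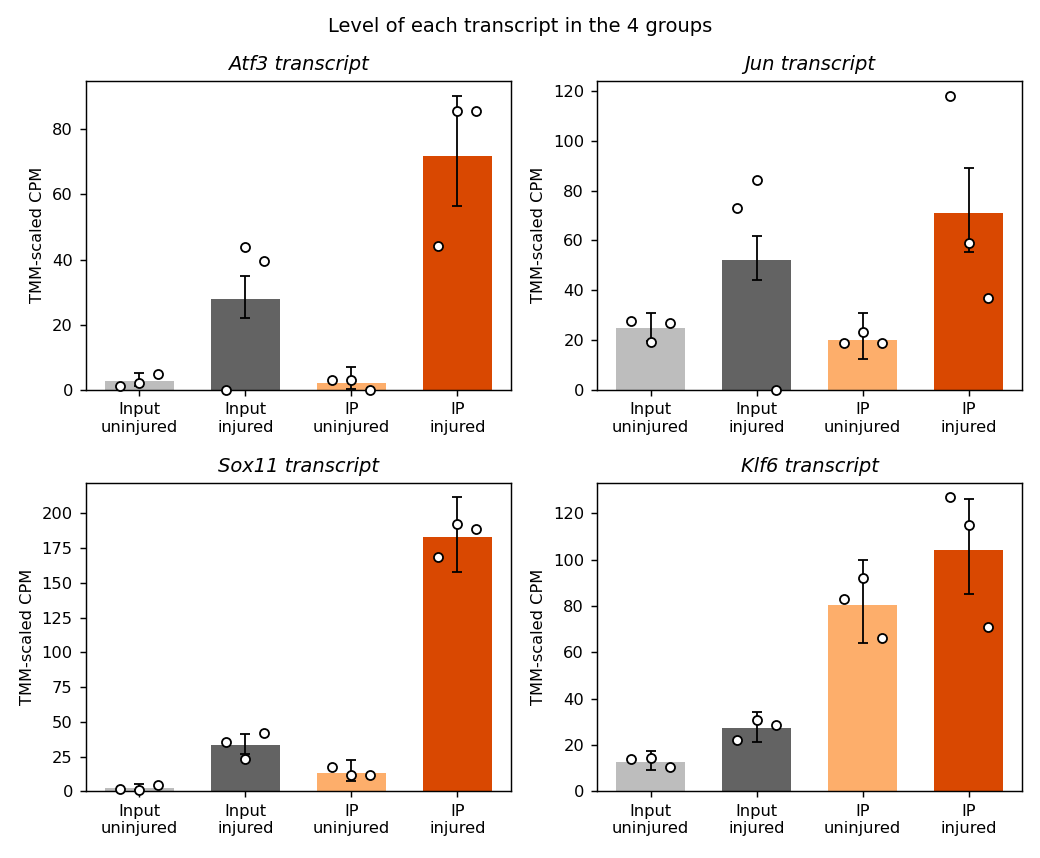
TMM-scaled CPM (y axis, linear, from 0) of each transcript in the 4 groups (x axis). Bars are summed levels with exact Poisson 95% intervals and the 3 points are the portions in number order; the points at 0 in injured input are Atf3 portion 1 and Jun portion 3, while the Sox11 portions of injured IP lie close together.

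The portions at 0 were far outside counting noise. The variance of the 3 counts was 19.1 times its counting expectation for Atf3 in injured input and 36.2 times for Jun in injured input. For Jun in injured IP it was 8.36 times, and for the other 13 combinations of transcript and group at most 2.84 times. Such gaps were not peculiar to these transcripts: among the 5198 transcripts with at least 50 summed counts in injured input, 196, or 3.77%, had exactly 1 portion at 0. In the other groups the share was 3.58% to 4.28%. Whether estimated counts had moved to another transcript of the gene was not tested.

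Injured and uninjured IP were compared to ask which ribosome-bound RNA of sensory neurons differed after nerve injury. Atf3, Jun and Sox11 were called higher and Klf6 was not called, that is 3 of 4, while 11.3% of the 8041 compared transcripts were called higher. Atf3 was 37.4-fold higher (95% counting interval 10 to 315), a ratio that rests on 2 uninjured counts and ranked 3 among the 8041. Transcripts at 0 in uninjured IP were divided by 3 counts and Atf3 by its 2, which can place them below Atf3. Sox11 was 13.6-fold higher (7.92 to 25.4), at rank 59. Jun was 3.52-fold higher (2.14 to 6.02), at rank 722, and 2.28-fold without injured IP portion 1, which held most of its counts. The ratio of Klf6 was 1.30 (0.963 to 1.75), and 34.6% of the compared transcripts had a higher one. The median log2 ratio was 2.79 over the 4 transcripts and -0.09 over all compared. The 4 were chosen with earlier results of these data known, so the contrast with all transcripts describes them and tests nothing.

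With the 3 samples of a group taken as replicates, edgeR's quasi-likelihood test with Benjamini-Hochberg adjustment over 9959 transcripts called 7.12% higher in injured IP. Sox11 had an adjusted p of 6.01e-05 and Atf3 of 0.031 in that fit. Jun had an adjusted p of 0.292, so its call depends on treating the samples as portions. The labels do not say that the samples came from separate animals, and such p-values measure only the spread between these samples.

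The same comparison in the input asks how the transcripts differed in RNA of the ganglion as a whole. Sox11 and Klf6 were called higher, 2 of 4, against 9.51% of 8953 compared transcripts. Sox11 was 12.7-fold higher (6.18 to 30.3), and 23.1-fold (7.66 to 114.1) without uninjured input portion 3, which held 5 of its 8 uninjured counts. Klf6 was 2.12-fold higher (1.42 to 3.21), close to the 2-fold threshold. It fell under that threshold without injured input portion 2 or 3 or uninjured input portion 3, at log2 ratios of 0.91, 0.97 and 0.96.

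Atf3 and Jun had summed ratios of 10.6 (5.12 to 25.5) and 2.11 (1.59 to 2.84) in the input and were not called, because the portion at 0 made the groups overlap. Without injured input portion 1 Atf3 was 15.1-fold higher (7.28 to 36.2) and was called. Without uninjured input portion 3 its ratio was 19.3 (6.36 to 95.7), on 3 uninjured counts, with the overlap kept. Without injured input portion 3 Jun was 3.02-fold higher (2.26 to 4.04) and was called, and without injured input portion 2 its ratio was 1.40 (0.988 to 1.97). The median log2 ratio in input was 2.25 over the 4 transcripts and -0.10 over all compared, a contrast that tests nothing given how the 4 were chosen.

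When the samples were taken as replicates, edgeR called 5.45% of 9959 transcripts higher in injured input. Adjusted p-values in this edgeR fit were 3.02e-04 for Sox11, 0.0405 for Klf6, 0.086 for Atf3 and 0.558 for Jun. DESeq2 called 3.52% of 10760 transcripts higher. There Sox11 kept its call, at 1.06e-05, and Klf6 did not, at an adjusted p of 0.263.

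**Figure D2:**
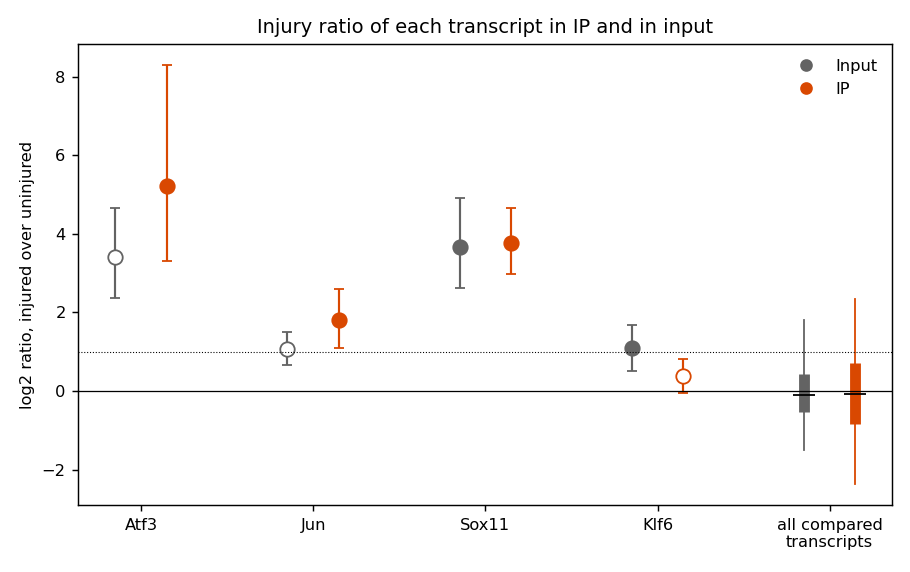
Log2 ratio of injured over uninjured (y axis) for each transcript in input (grey) and IP (orange), with exact 95% counting intervals. Filled points were called higher and open points were not; at the right, all compared transcripts are shown by their median, middle 50% (thick line) and middle 90% (thin line), and the dotted line is 2-fold.

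Leaving out 1 portion at a time shows how much each ratio rests on single portions. Fewer portions make the rule of no overlap easier to meet, so kept calls are weak evidence. Over all transcripts 972 to 1176 were then called higher in IP, against 906 with all portions, and 859 to 997 in input, against 851. In IP, Atf3, Jun and Sox11 were called higher in all 6 such fits, with log2 ratios of 4.79 to 5.81, 1.19 to 2.10 and 3.70 to 4.16, and Klf6 in none of them, at 0.17 to 0.64. In input Sox11 was called in all 6, at 3.31 to 4.53. Atf3 and Jun were each called in 1 of 6 and Klf6 in 3 of 6, at 2.84 to 4.27, 0.48 to 1.59 and 0.91 to 1.18.

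**Figure D3:**
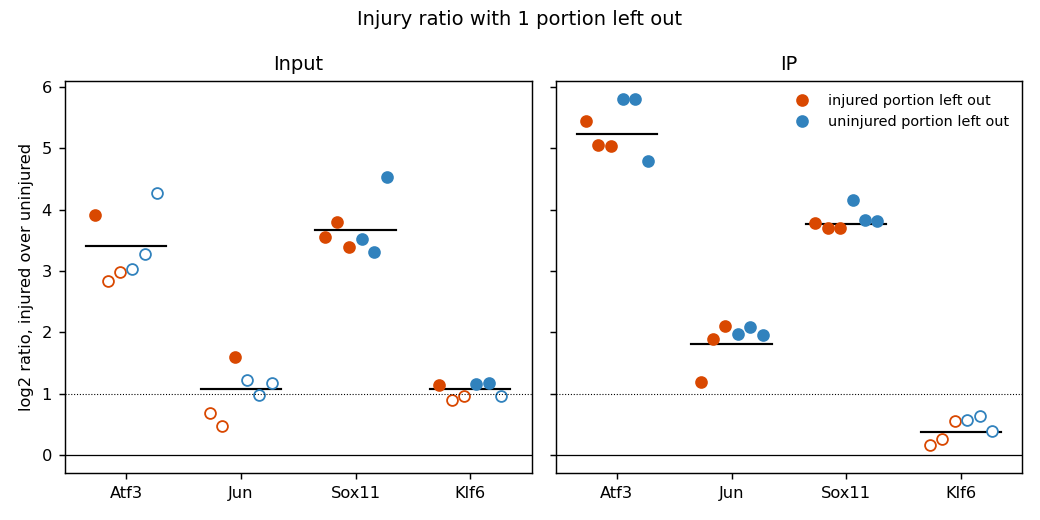
Log2 ratio of injured over uninjured (y axis) in input and IP with 1 portion left out, for each transcript. The black line is the value from all portions, filled points were called higher, and colour tells whether an injured or an uninjured portion was left out; in IP the 6 points of Atf3, Jun and Sox11 are all filled, in input those of Sox11 alone.

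Whether the injury ratio itself was different in IP and input could be computed for Jun and Klf6, which had at least 10 counts in all 4 groups. The log2 ratio of Jun was 0.73 higher in IP than in input (95% counting interval -0.07 to 1.54). That of Klf6 was lower in IP, with a difference of -0.71 (-1.41 to -0.02). Neither reached the difference of 1 that was required, against 10.1% of 4928 transcripts with a higher and 10.4% with a lower ratio in IP. The Jun value moved with single portions. It was 0.24 without injured input portion 3 and 0.11 without injured IP portion 1, but 1.14 and 1.35 without injured input portions 1 and 2 and 1.01 without injured IP portion 3, where it was called.

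Atf3 and Sox11 had fewer than 10 counts in at least 1 uninjured group and were left out of that comparison. Side by side, Atf3 was 37.4-fold higher in IP and 10.6-fold in input, with overlapping intervals, and Sox11 13.6-fold and 12.7-fold. With the samples as replicates, edgeR called 3.08% of 9959 transcripts with a higher and 1.45% with a lower injury effect in IP. Its test of this difference gave adjusted p-values of 0.415 for Klf6, 0.728 for Atf3, 0.847 for Jun and 0.998 for Sox11, and unadjusted ones of 0.122 to 0.823. In that edgeR fit a difference of injury effects between the fractions was not shown for any of the 4. With the portions summed, the Klf6 interval excluded 0 but its difference was under the required size, and Atf3 and Sox11 were not compared. In DESeq2 the unadjusted p-values were 0.331 to 0.861.

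IP was set against input to ask which of the 4 transcripts the pulldown enriched. In uninjured ganglia Sox11 and Klf6 were called higher in IP, and of all 10135 compared transcripts 21.7% were. Klf6 was 6.27-fold higher (4.24 to 9.42) and Sox11 5.10-fold (2.00 to 14.0), the latter on 14 and 8 counts. Without uninjured input portion 3 the Sox11 ratio was 9.23 (2.58 to 50.1). The ratio of Jun was 0.815 (0.477 to 1.34). Atf3, with 2 and 8 counts, did not reach the level to be compared.

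In injured ganglia Sox11, Klf6 and Atf3 were called higher in IP than in input, against 18.3% of 9608 compared transcripts. Sox11 was 5.47-fold higher (4.23 to 7.11), Klf6 3.83-fold (2.82 to 5.23) and Atf3 2.57-fold (1.84 to 3.59). The Atf3 call was lost with all portions kept when no filter preceded the TMM factors, at a log2 ratio of 1.21 against 1.36. It was also lost without the injured input portion at 0, at a ratio of 1.77 (1.26 to 2.47). Without injured IP portion 2 or 3 its ratio stayed above 2, at 2.29 and 2.28, but the portion with 15 counts then overlapped the input once scaled. With the samples as replicates, edgeR gave Atf3 an adjusted p of 0.249. The ratio of Jun was 1.36 (1.01 to 1.81) and was not called, and it turned to 0.886 without injured IP portion 1 and to 0.927 without injured input portion 3.

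The ratios of IP to input depended on the scaling. Library totals alone multiply injury ratios by 1.08 in IP and 0.952 in input. They multiply ratios of IP to input by 2.73 in uninjured and 3.11 in injured ganglia, which adds 1.45 and 1.64 to each log2 ratio. The 10 CPM level was applied anew on that scale, so the transcripts compared were not the same ones. The median log2 ratio of those compared was -0.43 with TMM and 1.67 with library totals in uninjured ganglia. In injured ganglia it was -0.54 and 1.79, and these medians hold both changes. With library totals alone Jun was called higher in IP in both conditions, at 2.23-fold (1.30 to 3.65) without injury and 4.21-fold (3.13 to 5.63) with it. The uninjured Atf3 ratio turned from 0.728 to 1.99 (0.206 to 9.96). Among the compared transcripts, with TMM scaling, 9.79% had a higher uninjured ratio than Klf6, 11.9% than Sox11 and 48.3% than Jun. In injured ganglia 7.63% had a higher ratio than Sox11, 11.6% than Klf6, 18.6% than Atf3 and 34.8% than Jun.

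**Figure D4:**
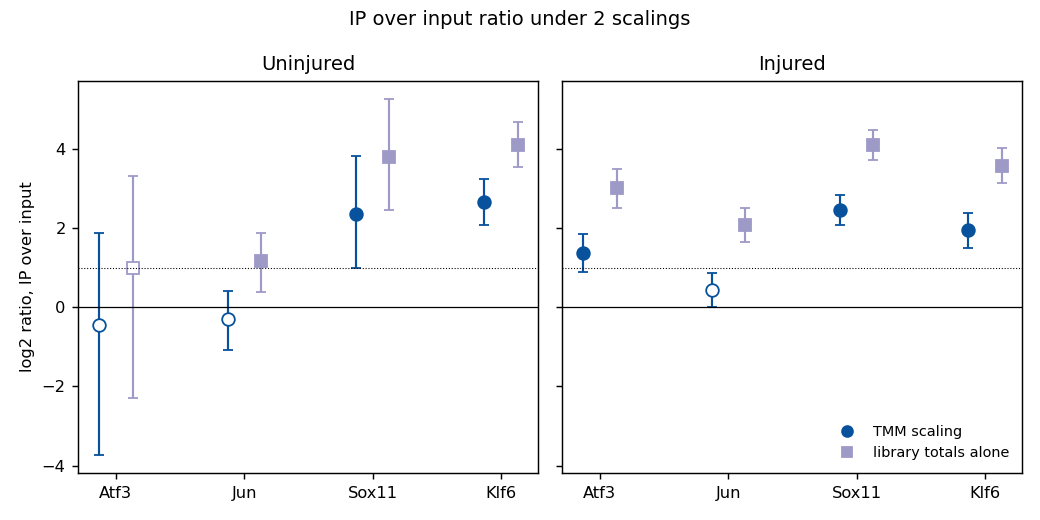
Log2 ratio of IP over input (y axis) for each transcript in uninjured and injured ganglia, with TMM scaling (circles) and with library totals alone (squares), and exact 95% counting intervals. Filled symbols were called higher in IP and the dotted line is 2-fold; under either scaling Sox11 and Klf6 are filled in both panels.

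The transcripts with the profile most like the mean of these 4 over the 4 groups were sought among 11380 transcripts that reached 10 CPM in at least 1 group. Likeness was the root mean square distance between centred log2(CPM + 1) profiles, and the 4 members themselves lay at 0.732 (Sox11), 0.754 (Jun), 0.871 (Atf3) and 1.00 (Klf6) from their mean. The nearest was ENSMUST00000084250.11 at 0.150, with 0 and 12 summed counts in uninjured and injured input and 1 and 12 in uninjured and injured IP. Next came ENSMUST00000136900.2 at 0.187, with 1 and 18 counts in input and 2 and 15 in IP. Both have few counts, and their gene names are not paired with the IDs.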

How the data were processed

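The deposited table gives the authors' estimated counts per transcript, not normalized, of which 3.00% to 11.4% per sample were not whole. Libraries were nanopore cDNA-PCR libraries, per the labels. Minimap2, Salmon, GRCm39 and mm39 are named in the submitters' processing notes, with roles, versions and settings not given in the sources used here. 0 of the table's IDs matched the gene tables, so gene lists and cell type markers were not analysed here.

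Counts of the 3 portions of a group were summed and rounded to whole numbers. TMM factors came from 15168 transcripts passing filterByExpr in edgeR 4.0.16 (R 4.3.3), and ratios have exact conditional (Clopper-Pearson) intervals (scipy 1.17.1). The difference of injury effects used a normal approximation on the log scale. For the other fits, edgeR's quasi-likelihood test and DESeq2 1.42.0 were run on rounded counts, at an adjusted p of 0.05. The scripts were tested on simulated data with counting noise alone, or for edgeR with a coefficient of variation below the one estimated here. Portions at 0 like those of Atf3 and Jun in injured input were not simulated, so the calls are not tested for them. Input held 5056160 and 4754071 counts in all and IP 636012 and 571960, uninjured first, so that 1 count was worth 0.329, 0.368, 0.959 and 0.984 scaled CPM. Named were the 4 members and the 2 transcripts nearest to their mean profile. The members and rules were chosen with earlier results of these data known.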

Additional observations from a re-analysis of the deposited data

How the results depend on the processing

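Calls over all transcripts moved by more than 1.5 times mainly where the 3 samples were taken as replicates. For injury in IP, 906 higher and 878 lower transcripts were reported, against 541 lower in edgeR, 536 and 376 with the replicate block and 433 and 218 in DESeq2. For injury in input, 851 and 618 were reported, against 543 and 357 in edgeR, 399 and 215 with the replicate block, 379 and 84 in DESeq2, and 1306 and 1054 with no minimum level. DESeq2 called 1 member higher there in place of 2, with 3.52% of 10760 transcripts called higher. For IP against input, 2202 higher and 3880 lower in uninjured ganglia became 4777 and 2207 with library totals alone, and 1760 and 3661 in injured ganglia became 5118 and 1830, so that the share of higher calls went from 36.2% to 68.4% and from 32.5% to 73.7%. DESeq2 called 1440 and 1119 higher. With no filter before the TMM factors 2 members were called higher in injured IP against input in place of 3, Atf3 being lost. Over all transcripts 1547 were then called higher and 3927 lower, against 1760 and 3661. For the difference of injury effects, 498 and 513 of 4928 became 307 and 144 of 9959 in edgeR, 215 and 95 of 9959 with the replicate block and 194 and 61 of 1784 in DESeq2. The 1784 are the transcripts to which DESeq2 gave an adjusted p, and none of the 4 members was among them. The 4928 are those with at least 10 counts in all 4 groups. The shares of higher calls, 10.9% in DESeq2 and 10.1% as reported, thus have unlike bases and cannot be set against each other. Library totals alone moved the share of higher calls from 50.8% to 60.9% for injury in IP and from 49.3% to 65.6% for the difference of effects. Leaving out 1 portion gave 1 to 3 members called higher for injury in input and 0 to 1 for the difference of effects. 

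Log2 ratios of IP to input that changed sign were Atf3 in uninjured ganglia, from -0.46 to 0.99 with library totals alone and between -0.97 and 0.40 with 1 portion left out, and Jun, from -0.29 to 1.15 in uninjured ganglia with library totals alone and between -0.17 and 1.00 in injured ganglia with 1 portion left out. The injury ratios of the members kept their sign in all settings run. With library totals alone the median log2 injury ratio of the compared transcripts in IP was 0.15, against -0.09. The scaling itself adds 0.116 to each log2 ratio, and the transcripts compared were not the same ones. The block did not change the call of any member relative to edgeR without it. By the requirement that every same-numbered r exceed 0.1, replicate numbers were not taken as pairs in any comparison. Over 240 transcripts, same-numbered samples had r of 0.389, -0.285 and -0.204 for injury in IP and 0.192, -0.029 and 0.233 in input, and 2 and 4 of 6 samples correlated best with their own number. For IP against input, r was 0.228, -0.066 and 0.105 without injury, and with injury it was 0.282, 0.117 and -0.055, with 4 and 3 of 6, so some sharing by number is possible. Depth limits Atf3 and Sox11 most, with 2 to 14 counts in the uninjured groups.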
